A study of Mus musculus with 6 samples.

Results

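The genes described here are 35 members of the fibroblast growth factor (FGF), Sprouty and mitogen-activated protein kinase (MAPK) pathway, chosen by name: ligands, receptors, the adaptors and kinases that carry the signal, its feedback inhibitors and its Ets transcription factors. Of the 35, 31 had a probe set that maps to them alone, out of 18193 such genes on the array, and each was read on the brightest of these probe sets. A total of 25 passed the filter on low signal (a mean log2 signal over 7 in either genotype), and Fgf1, Fgf2, Fgf8, Fgf10, Fgfr4 and Spry4 lay below it. Frs2, Hras and Mapk3 are not listed with a probe set in the annotation used, the probe sets of Etv1 map to more than 1 gene, and these 4 were not analysed here.

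The series asked which genes differ in the embryonic mouse retina that lacks Onecut1, a transcription factor of the cut and homeodomain type. Retinas of 3 wildtype (WT) and 3 Onecut1-deficient (OC1-KO) embryos, numbered 1 to 3 in each genotype, were each hybridised to 1 Affymetrix mouse genome array. The samples are labelled as embryonic day 14, and the series description gives E14.5. All were untreated and harvested as littermates, with no record of which embryos shared a litter, on a mixed strain background, the null allele having been made in R1 embryonic stem cells and later crossed to C57Bl/6. The allele is carried in all tissues, and RNA came from the whole retina, so fewer cells of a type and less RNA per cell cannot be told apart.

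In FGF signalling, a secreted ligand joins a receptor tyrosine kinase with heparan sulfate, and the receptor passes the signal through adaptors to Ras, then to the Raf, MEK and ERK kinases, which phosphorylate Ets transcription factors in the nucleus. The pathway restrains itself: Sprouty, Spred and dual-specificity phosphatase (Dusp) genes are switched on by it and dampen Ras or ERK, and Etv4 and Etv5 are likewise commonly used as its readouts. In the eye, FGF signals specify neural retina against pigment epithelium, start ganglion cell differentiation at the centre of the retina, and act on the lens.

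The arrays were comparable in signal, with median signals from 85.0 to 104. Of 6 genes listed as markers of the neural retina, 5 had a probe set and all 5 were kept, with a summed signal from 42450 to 56329 in WT and from 46098 to 58536 in OC1-KO. Onecut1 itself gave log2 signals of 9.25, 8.76 and 9.00 in WT and 9.02, 8.31 and 9.67 in OC1-KO. A dimmer Onecut1 probe set gave 8.51, 8.43 and 9.30 in WT and 8.94, 7.51 and 9.30 in OC1-KO. The sources used here do not place these probe sets relative to the deletion, so they do not check the genotype. Both embryos numbered 3 stood apart: the summed signal of 6 lens genes was 16934 in WT 3 and 8557 in OC1-KO 3 against 80.3 to 255 in the other 4, and that of 4 red blood cell genes 16426 and 23818 against 38.1 to 705. For some members the genotype difference is therefore also given with embryos 3 left out, and the members are compared by embryo number further on.

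Between the genotypes, the pathway differed little. On the log2 signal scale 12 of the 25 kept members were higher in OC1-KO and 13 lower, with a median difference of -0.02, beside a median of -0.01 and 47.7% higher over all 20888 probe sets kept. No member passed an adjusted p of 0.05 in limma, where 0.0% of all probe sets did, and none did so with the replicate block or by the methods' t-test. At an unadjusted limma p under 0.05 there was 1 member, the Ets factor gene Etv4, which was lower, where 0.637% of all probe sets were lower and 0.369% higher. Etv4 passed the filter through its WT mean alone, so its WT mean had to be the higher, and with no filter (Etv4 p 0.0642) or a filter at 8, which leaves it out, no member had a p under 0.05. The methods' t-test at the same threshold also took Etv4 alone, against 1.51% of all probe sets, and with the embryo number as a replicate block limma took Etv4 and, higher, Map2k1, against 2.81% lower and 1.57% higher. The kept members' 95% intervals had half-widths from 0.32 to 0.76, and all 25 lay within a log2 difference of 1, a doubling, in either direction. That bound holds for the brightest probe sets. It was met by 50 of all 60 kept probe sets of the members, and by 1 of the 6 members below the filter.

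The signs by role are given as counts, with no test. Of the 9 adaptor, Ras and kinase genes kept, 8 were higher in OC1-KO, with a median difference of 0.10. Of the 6 feedback inhibitors kept, 5 were lower, with a median of -0.12. Both Ets factors were lower, Etv4 with a sign that the filter had fixed. None of the kinases or inhibitors passed the test. With embryos 3 left out, 7 of the 9 kinase-arm genes were higher and 3 of the 6 inhibitors lower, and with each array left out in turn 6 to 9 and 4 to 5. Over all their kept probe sets, 17 of 27 in the kinase arm were higher, and 11 of 14 of the inhibitors lower. Of the 3 kept probe sets of the Ets factors, 2 were lower and 1 higher.

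**Figure D1:**
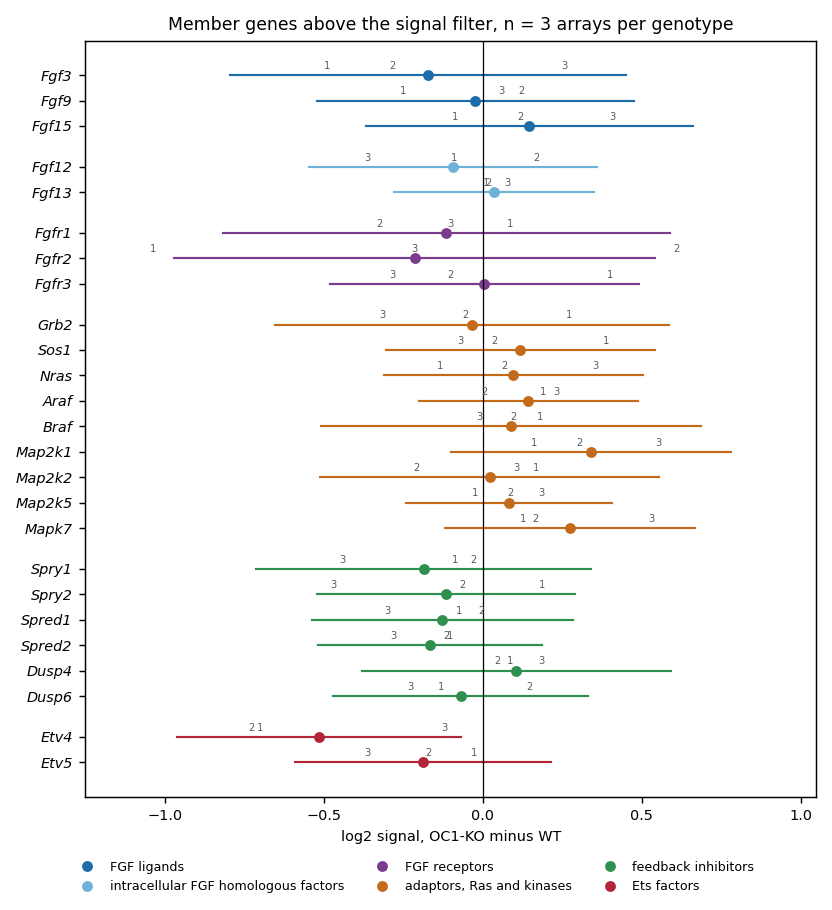
OC1-KO minus WT in log2 signal for the 25 kept members, grouped by role. Points are mean differences, bars their 95% limma intervals, and the small digits 1, 2 and 3 the differences between embryos of the same number. The Etv4 interval alone lies wholly on 1 side of 0, with no adjustment for the number of probe sets tested and with Etv4 kept through its WT mean only, and 8 of 9 kinase-arm genes sit to the right of 0.

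The Ets factors Etv4 and Etv5 are transcription factors whose own transcription follows FGF and ERK activity in many embryonic tissues. Etv4 (chromosome 11, 101769747 to 101785310 in GRCm38.p6) gave log2 signals of 7.32, 7.14 and 7.10 in WT 1 to 3 and 6.62, 6.41 and 6.98 in OC1-KO 1 to 3. Every OC1-KO array lay below every WT array, and OC1-KO 3 lay nearest to WT. The means were 7.19 ± 0.12 in WT against 6.67 ± 0.29 in OC1-KO (SD, n = 3 each). The log2 difference was -0.52 (SE 0.19; 95% interval -0.96 to -0.07), or 0.699 of the WT signal. The unadjusted limma p was 0.0293, the adjusted p was 1.00, and the exact two-sided permutation p was 0.1, the smallest that 3 against 3 allows.

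It was lower in OC1-KO in all 3 same-number pairs, by -0.70, -0.73 and -0.12, and the difference was -0.71 without embryos 3. Of the 6 fits that each leave out 1 array, 2 kept an unadjusted limma p under 0.05, those without WT 3 and without OC1-KO 3. The other probe set of Etv4, below the filter, had means of 5.76 ± 0.45 in WT against 5.90 ± 0.29 in OC1-KO (SD, n = 3 each), a difference of 0.14 in the opposite direction. Genotypes follow the GEO labels here: the column headings of 1 supplementary table of the study that lists Etv4 name the opposite genotype for these arrays, while that table's own direction entries follow the labels.

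Etv5 gave log2 signals of 10.54, 10.92 and 10.92 in WT and 10.51, 10.74 and 10.56 in OC1-KO. It was lower in each of the 3 pairs, by -0.03, -0.17 and -0.36, and the groups overlapped through WT 1. The log2 difference was -0.19 (SE 0.17; 95% interval -0.59 to 0.21), and -0.10 without embryos 3. Its second kept probe set differed by 0.18, so the direction for Etv5 depended on the probe set. Lower in all 3 pairs were 5 of the 25 members (Spry1, Spred1, Spred2, Etv4 and Etv5), against 13.1% of all probe sets. Higher in all 3 pairs were also 5 (Fgf13, Map2k1, Araf, Mapk7 and Dusp4), against 10.3%.

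The feedback inhibitors act at different steps. Sprouty proteins (Spry1, Spry2, Spry4) restrain receptor signalling upstream of ERK, Spred proteins (Spred1, Spred2) hold Ras and Raf in check, and Dusp4 and Dusp6 remove phosphate from ERK. Spry1 gave 9.73, 9.18 and 9.52 in WT and 9.64, 9.15 and 9.08 in OC1-KO, a log2 difference of -0.19 (SE 0.22) that lay mostly in pair 3. Without embryos 3 it was -0.06. Spred2 gave 10.84, 11.02 and 11.12 in WT and 10.74, 10.91 and 10.84 in OC1-KO, and differed by -0.17 (SE 0.15). Its 3 kept probe sets were all lower, by -0.30 to -0.08, and the arrays of the brightest overlapped between the genotypes.

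Dusp6, a phosphatase of ERK that is widely used as a readout of FGF signalling, showed little difference. Its log2 signals were 11.89, 11.57 and 11.65 in WT and 11.76, 11.71 and 11.42 in OC1-KO. The difference was -0.07 (SE 0.17; 95% interval -0.47 to 0.33), and 0.01 without embryos 3. Dusp4 was the inhibitor with a higher mean in OC1-KO, at 10.51 ± 0.23 in WT against 10.62 ± 0.28 in OC1-KO (SD, n = 3 each), within the spread of the arrays. The arrays gave 10.26, 10.55 and 10.72 in WT and 10.35, 10.59 and 10.91 in OC1-KO, so the embryo number ordered them more than the genotype did. Spry2 and Spred1 differed by -0.12 and -0.13, both with an SE of 0.17, and without embryos 3 by 0.06 and -0.04.

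Spry4, below the filter on all its probe sets, was lower by -0.48 (SE 0.31) on the brightest, at 6.68 ± 0.19 in WT against 6.20 ± 0.51 in OC1-KO (SD, n = 3 each). Its pairs differed by -0.93, -0.03 and -0.48. Of the 6 kept probe sets of Spred1, 4 were lower and 2 higher. One of the dimmer lower ones gave 7.97, 8.71 and 7.85 in WT and 7.67, 7.76 and 7.25 in OC1-KO. Its groups did not overlap, and the log2 difference was -0.62 (SE 0.27) with an unadjusted limma p of 0.0563, or 0.00941 with the replicate block, and an adjusted p of 1.00. The brightest Spred1 probe set, at -0.13, did not share a difference of that size.

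**Figure D2:**
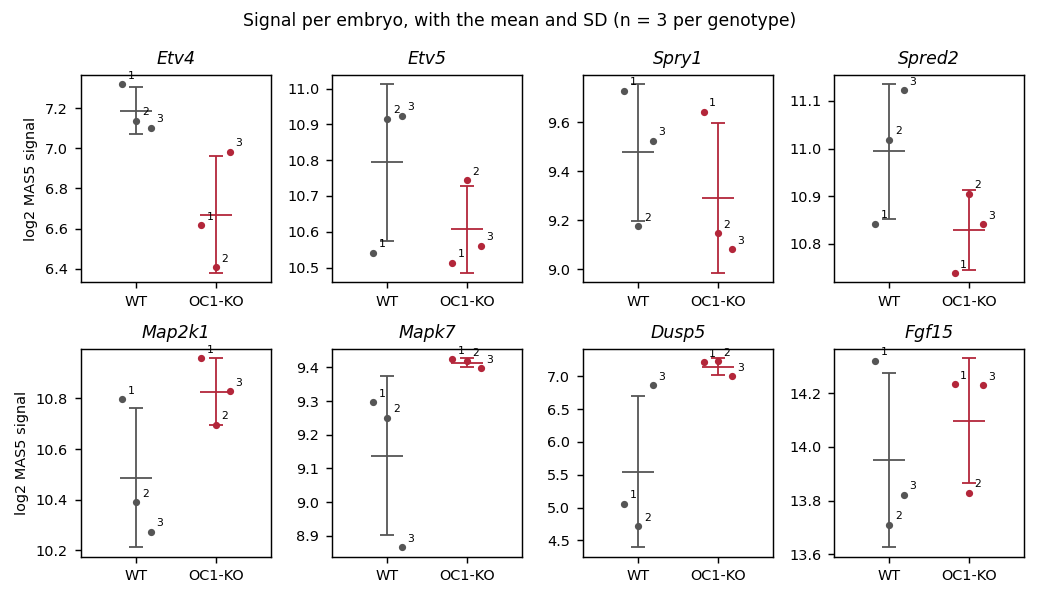
Log2 MAS5 signal of 8 genes in each embryo, with the embryo number beside each point, and the mean and SD of each genotype (n = 3). The vertical scale differs between panels. In Etv4, Mapk7 and Dusp5 the genotypes do not overlap, while in Etv5, Spry1, Spred2, Map2k1 and Fgf15 they do.

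The kinase arm holds a classical branch, in which Map2k1 and Map2k2 (MEK1 and MEK2) activate ERK, and a parallel one, in which Map2k5 (MEK5) activates Mapk7 (ERK5). Map2k1 gave log2 signals of 10.80, 10.39 and 10.27 in WT and 10.96, 10.70 and 10.83 in OC1-KO. OC1-KO was the higher in each pair, by 0.16, 0.31 and 0.55, but WT 1 lay above OC1-KO 2. The log2 difference was 0.34 (SE 0.19; 95% interval -0.10 to 0.78), with an unadjusted limma p of 0.110, or 0.0415 with the replicate block, and adjusted p of 1.00 and 0.999. Without WT 1 it was 0.50, with an unadjusted limma p of 0.0283, and without WT 3 or without both embryos 3 it was 0.23 (unadjusted limma p 0.297 and 0.341).

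Mapk7, the ERK5 kinase, gave 9.30, 9.25 and 8.87 in WT and 9.42, 9.42 and 9.40 in OC1-KO. The groups did not overlap. Among the 25 members 1 was higher without overlap (Mapk7) and 1 lower (Etv4), where 1.7% and 1.86% of all probe sets were. The difference was 0.28 (SE 0.17; unadjusted limma p 0.141), 0.14 without WT 3, the lowest array, and 0.15 without both embryos 3.

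Map2k5, the kinase just above Mapk7, gave different answers on its probe sets. The brightest gave 9.70, 9.73 and 9.63 in WT and 9.68, 9.82 and 9.82 in OC1-KO, a difference of 0.08 (SE 0.14). On a dimmer kept probe set the signals were 7.11, 7.48 and 7.66 in WT and 8.06, 8.06 and 8.07 in OC1-KO, a difference of 0.65 (SE 0.18), with an unadjusted limma p of 0.00872 and an adjusted p of 1.00. On the third kept probe set the difference was -0.27 (SE 0.18). The direction and size for Map2k5 therefore held for no more than the probe set named. Map2k5 (chromosome 9, 63163768 to 63381682) and Map2k1 (64185769 to 64253605) lie 11.5 and 10.6 megabases from Onecut1 on the same chromosome. Whether DNA carried along with the null allele played a part in their signals was not tested.

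The remaining genes of this arm stayed within their spread. Nras, a Ras GTPase, gave 11.91, 11.67 and 11.80 in WT and 11.78, 11.74 and 12.15 in OC1-KO, a difference of 0.10 (SE 0.17). Map2k2 gave 10.95, 10.76 and 11.15 in WT and 11.11, 10.55 and 11.25 in OC1-KO, a difference of 0.02 (SE 0.22). In both the genotypes overlapped, as they did in the Raf kinase genes Araf and Braf, which differed by 0.14 (SE 0.15) and 0.09 (SE 0.25). Sos1, which loads Ras with GTP, differed by 0.12 (SE 0.18), and Grb2, the adaptor that brings it to the receptor, by -0.03 (SE 0.26).

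Among the ligands, Fgf15, a progenitor gene of the embryonic retina and forebrain, gave log2 signals of 14.32, 13.71 and 13.82 in WT and 14.23, 13.83 and 14.23 in OC1-KO. The groups overlapped, at 13.95 ± 0.32 and 14.10 ± 0.23 (SD, n = 3 each). The difference was 0.15 (SE 0.22), and 0.02 without embryos 3. Fgf3 gave 10.42, 10.03 and 10.39 in WT and 9.93, 9.75 and 10.65 in OC1-KO, lower in pairs 1 and 2 by -0.49 and -0.29 and higher in pair 3 by 0.26. The mean difference was -0.17 (SE 0.26), or -0.39 without embryos 3, and all 3 kept probe sets of Fgf3 were lower, by -0.18 to -0.17. Fgf9, which promotes neural retina identity, gave 9.95, 9.27 and 9.50 in WT and 9.70, 9.39 and 9.56 in OC1-KO, a difference of -0.02 (SE 0.21; 95% interval -0.52 to 0.47). No kept ligand differed beyond its spread.

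The other ligands were below the filter, where MAS5 signals are close to background. Fgf1 differed by 0.46 (SE 0.28) and Fgf10 by 0.26 (SE 0.42), both positive in pairs 1 and 2 and negative in pair 3. Fgf8 gave 2.68, 2.32 and 5.54 in WT and 4.68, 3.74 and 5.16 in OC1-KO, and its difference of 1.02 (SE 0.94) became -0.13 with signals under 32 set to 32. Fgf2 gave -0.02, 1.06 and 3.86 in WT and 0.84, 0.77 and 4.39 in OC1-KO, all below that floor. No direction by genotype can be read from either.

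The homologous factors Fgf12 and Fgf13 share the FGF fold but stay in the cell, where they bind sodium channels. Fgf13 varied little on its brightest probe set, at 12.00, 11.92 and 11.97 in WT and 12.02, 11.94 and 12.04 in OC1-KO, a difference of 0.04 (SE 0.13). Its other kept probe set gave 7.18, 7.35 and 7.37 in WT and 7.70, 7.61 and 7.80 in OC1-KO. There the groups did not overlap, and the difference was 0.40 (SE 0.14), with an unadjusted limma p of 0.0263 and an adjusted p of 1.00. Fgf12 gave 9.63, 9.31 and 9.40 in WT and 9.54, 9.48 and 9.04 in OC1-KO, a difference of -0.09 (SE 0.19).

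**Figure D3:**
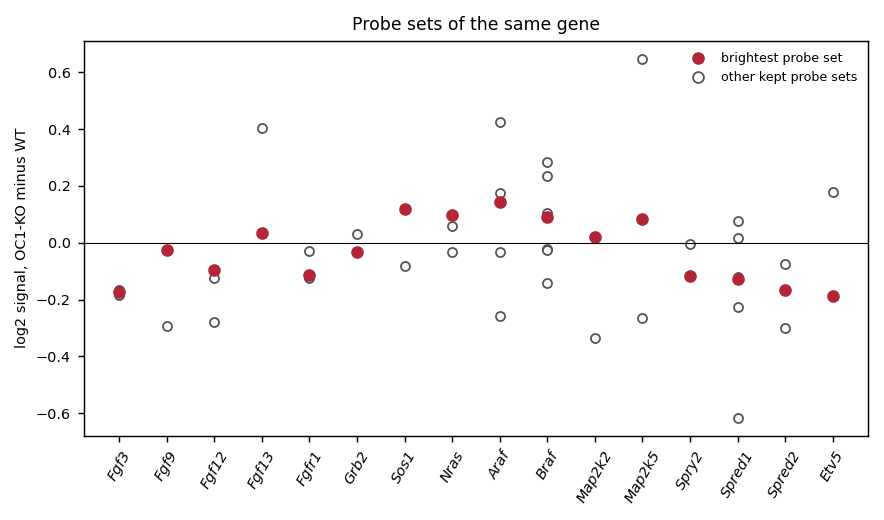
OC1-KO minus WT in log2 signal for every kept probe set of the 16 members with more than 1, the brightest filled and the others open. The probe sets of 7 genes share a sign, and those of 9 genes lie on both sides of 0, with Map2k5 reaching from -0.27 to 0.65.

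Probe sets of the same gene can read different transcript ends or isoforms, and the members show how far this matters. In 16 members more than 1 probe set was kept. In 7 of them (Fgf3, Fgf9, Fgf12, Fgf13, Fgfr1, Spry2 and Spred2) all shared a sign, and in the other 9 they did not. Over all 60 kept probe sets of the members 25 were higher and 35 lower, and 3 had an unadjusted limma p under 0.05, those of Etv4, Fgf13 and Map2k5 given above. Over all probe sets 47.7% were higher, and 0.369% were higher and 0.637% lower at that threshold.

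The receptors Fgfr1, Fgfr2 and Fgfr3 are the tyrosine kinases that bind FGFs in neural tissue. Fgfr1 gave log2 signals of 8.42, 9.02 and 9.35 in WT and 8.50, 8.69 and 9.25 in OC1-KO, and Fgfr3 gave 7.40, 7.91 and 7.64 in WT and 7.80, 7.81 and 7.35 in OC1-KO. Their differences were -0.11 (SE 0.30) and 0.00 (SE 0.21), with both groups overlapping. Fgfr2 gave 8.10, 7.09 and 7.96 in WT and 7.07, 7.70 and 7.75 in OC1-KO. Its difference of -0.21 (SE 0.32) joined pair values of -1.04 and 0.61 for embryos 1 and 2, so the arrays of a genotype differed more than the genotypes. Fgfr4, below the filter, differed by -0.13 (SE 0.34).

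The probe sets of the arrays in general separated by embryo number, and the members did so to no greater extent. Embryos 3 were set against embryos 1 and 2 because earlier results of these data had shown them to stand apart. In limma with genotype and number in the model, 1 kept member was higher in embryos 3 at an adjusted p under 0.05. This compares with 3.02% of all probe sets, and 1 member was lower, against 6.61%. Fgfr1 was the higher one, from a mean log2 signal of 8.66 over the 4 embryos numbered 1 and 2 to 9.30 over both embryos 3, a difference of 0.64 (SE 0.14, adjusted p 0.0493). A dimmer Fgfr1 probe set gave 7.03, 6.93 and 8.10 in WT and 6.84, 6.91 and 7.94 in OC1-KO. It rose by 1.09 (adjusted p 0.0200), while the remaining kept Fgfr1 probe set showed no such rise, at 0.01 (adjusted p 0.973).

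Braf was the lower one, with log2 signals of 11.05, 10.90 and 10.48 in WT and 11.23, 11.00 and 10.47 in OC1-KO. It fell by 0.58 on the log2 scale in embryos 3, the difference being -0.58 (SE 0.12, adjusted p 0.0455), and 2 of its other 7 kept probe sets passed the test too, at -0.80 and -1.51. A dimmer Araf probe set also fell in embryos 3, by -0.90 (adjusted p 0.0455), while the brightest Araf probe set differed by -0.08. Both genotypes showed these shifts. The array's ratios of 3′ to 5′ control probe sets, a measure of RNA integrity, were also lower in embryos 3, at log2 values of 0.66 and 0.45 against 0.76 to 1.11 for actin and -0.42 and -0.49 against -0.27 to -0.24 for Gapdh, and their part in these shifts was not tested. With no filter on low signal neither Fgfr1 (adjusted p 0.299) nor Braf (adjusted p 0.292) passed. With the mean over a gene's kept probe sets Fgfr1 passed (adjusted p 0.0411) and Braf did not (adjusted p 0.125). In the F test over the 3 embryo numbers neither brightest probe set passed (adjusted p 0.0706 for Fgfr1 and 0.0757 for Braf).

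At an unadjusted limma p under 0.05, 6 of the 25 members differed by embryo number (Fgf3, Fgfr1, Grb2, Map2k2 and Dusp4 higher in embryos 3, Braf lower), where 31.0% of all probe sets did. In Fgfr1, Sos1, Map2k2 and Dusp4 both embryos 3 lay above the other 4, as in 14.9% of probe sets, and in Braf and Spred1 both lay below, as in 23.5%. Read against these backgrounds, 6 of 25 and 2 of 25 are smaller shares and 4 of 25 is a like one. The embryo number held a median of 61.6% of a member's variance and genotype 9.40%, beside 70.1% and 5.02% over all probe sets. The number has more levels than genotype, so it tends to hold the larger share even where neither has an effect.

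Some ligands and receptors below the filter stood higher in embryos 3 without passing the test. Fgf2, whose signals all lay under 32, was at a log2 signal of 0.66 on average in embryos 1 and 2 and at 4.13 in embryos 3, Fgf8 at 3.36 and 5.35, and Fgfr4 at 5.51 and 6.18. In all of them both embryos 3 lay above the other 4, and fitted with all probe sets their adjusted p were 0.240, 0.315 and 0.335. The sums of the lens, red blood cell, periocular mesenchyme and pigment epithelium genes were higher in the same arrays. The 4 mesenchyme genes summed to 1466 in WT 3 and 847 in OC1-KO 3 against at most 207 in the others. The 6 pigment epithelium genes summed to 793 and 1967 against 295 to 577. Only 2 of 6 lens, 1 of 4 red blood cell, 0 of 4 mesenchyme and 3 of 6 pigment epithelium genes passed the filter. The sum of 4 endothelium genes was lower in embryos 3, at 1174 and 1251 against 1345 to 2235. The pigment epithelium sum was also the higher in OC1-KO in each pair, at 494 against 367, 577 against 295 and 1967 against 793. Of its genes, Pmel differed by 1.40 (unadjusted limma p 0.0852, or 0.0026 with the replicate block) and Mitf by 0.72 (0.136, or 0.0097). With the block the adjusted limma p was 0.999 for both, and 1.57% of all probe sets were higher at an unadjusted p under 0.05. Only Pmel and Mitf were higher in each pair. Tyr, Dct and Rpe65 differed by 0.72, 0.62 and 0.28, and Tyrp1 by -0.03. Tyr, Dct and Tyrp1 were lower in pair 1, and Rpe65 in pair 3. Whether pigment epithelium played a part in the genotype differences of the members was not tested. The part of these tissues in the Fgfr1, Fgf2, Fgf8 and Fgfr4 signals was not tested.

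**Figure D4:**
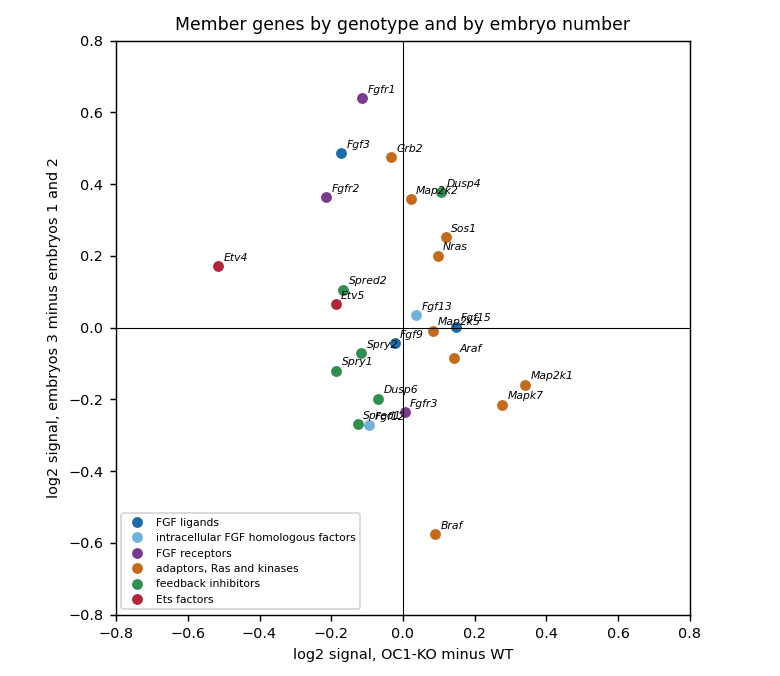
The 25 kept members by their log2 difference between genotypes (horizontal) and between embryos 3 and embryos 1 and 2 (vertical), on the same scale, coloured by role. Etv4 lies farthest out along the genotype axis, at -0.52, and Fgfr1 and Braf along the number axis, at 0.64 and -0.58.

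Around the members, 71 other genes of the pathway were listed, 65 had a probe set and 47 were kept. By genotype 25 were higher and 22 lower, with a median of 0.01, beside 47.7% higher over all probe sets. One was higher at an unadjusted limma p under 0.05 and none lower, beside 0.369% and 0.637% of all probe sets, and none passed after adjustment. It was Dusp5, a nuclear phosphatase of ERK and itself a target of the pathway. Dusp5 gave 5.06, 4.72 and 6.86 in WT and 7.22, 7.23 and 7.0 in OC1-KO. The genotypes did not overlap, WT 3 lay close to OC1-KO 3, and Dusp5 passed the filter through its OC1-KO mean only. The log2 difference was 1.60 (SE 0.52; 95% interval 0.36 to 2.84), with an unadjusted limma p of 0.0184 and an adjusted p of 1.00, and the pairs differed by 2.16, 2.51 and 0.14. Because Dusp5 passed through its OC1-KO mean only, that mean had to be the higher, as the WT mean had to be in Etv4. The filter thus fixed both signs, and their contrast cannot be read. Dusp5 did not pass the methods' t-test (p 0.0744), and neither gene passed the adjusted threshold.

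Over the roles of these genes, with no test, 2 ligands and 4 genes of the receptor side were higher in OC1-KO and none lower. The genes of heparan sulfate synthesis stood at 4 higher and 4 lower, the adaptors at 5 and 4, the kinases at 4 and 3, the inhibitors at 3 and 2 and the targets at 3 and 4. The Ras genes and GTPase-activating proteins were lower in 5 of 5, including Nf1 at -0.33 (SE 0.19; unadjusted limma p 0.135, or 0.0448 with the replicate block). Spred3, the third Spred gene, gave 7.46, 7.45 and 8.03 in WT and 7.43, 7.10 and 7.20 in OC1-KO. Its difference was -0.40 (SE 0.21; unadjusted limma p 0.0951, or 0.0701 with the replicate block) without overlap. Of the 47 genes, 2 were lower without overlap (Spred3 and Ndst2, at -0.14) and 1 higher (Dusp5). Over all probe sets, 1.86% were lower without overlap and 1.7% higher. By embryo number, 2 of the 47 were lower in embryos 3 at an adjusted p under 0.05, against 6.61% of all probe sets. They were Fgf14 and Rasa2, which differed by -1.23 and -0.68 (adjusted p 0.0200 and 0.0376). In the F test over the embryo numbers Fgf14 passed (adjusted p 0.0399) and Rasa2 did not (adjusted p 0.0664).

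Since Onecut1 encodes a DNA-binding protein, the promoter windows of the members (250 bases before to 50 after the start, RefSeq on GRCm38.p6) were searched for the core letters ATTGAT and ATTGAC that Onecut factors are known to bind, on both strands, with neither word holding the other. Of 27 members with a window, 5 held a match (Fgf12, Fgfr2, Mapk7, Spry1 and Etv1), or 18.5%, beside 14.9% of 27025 genes. The window of Mapk7, whose arrays did not overlap, and that of Spry1, which was lower in all 3 pairs, are printed 5′ to 3′ on the strand of the gene, with the match in capitals. Mapk7 is from chr11:61494217-61494516, minus strand, and Spry1 from chr3:37639697-37639996, plus strand.
Mapk7: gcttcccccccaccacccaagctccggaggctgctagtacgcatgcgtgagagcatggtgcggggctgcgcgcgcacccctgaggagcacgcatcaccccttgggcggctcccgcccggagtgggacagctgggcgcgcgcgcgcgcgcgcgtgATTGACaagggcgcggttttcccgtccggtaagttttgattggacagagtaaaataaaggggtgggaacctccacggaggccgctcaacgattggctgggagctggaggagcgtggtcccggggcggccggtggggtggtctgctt
Spry1: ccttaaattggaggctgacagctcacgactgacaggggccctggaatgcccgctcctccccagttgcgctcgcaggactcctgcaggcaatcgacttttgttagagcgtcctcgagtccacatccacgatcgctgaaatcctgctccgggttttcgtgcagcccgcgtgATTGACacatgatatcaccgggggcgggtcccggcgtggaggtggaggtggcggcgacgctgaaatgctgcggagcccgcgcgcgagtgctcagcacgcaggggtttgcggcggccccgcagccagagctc
The match begins 96 bases before the start of Mapk7 and 81 bases before that of Spry1. A match of these letters is a description of the window and shows no binding.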

How the data were processed

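The values the authors deposited are MAS5 signal intensity per probe set, linear and set to a trimmed mean (2%) of 500 on every array; the sources used here do not give its version. Log2 was taken with no further scaling. Of 45101 probe sets, 64 controls were removed, and 20888 passed the filter, which is the methods' own. Genes came from the platform annotation. The genotypes were compared in limma 3.58.1 (R 4.3.3; lmFit and eBayes, no trend) over all kept probe sets with Benjamini-Hochberg adjustment, a member below the filter being fitted with all probe sets. The embryo number was added as a replicate block, compared as embryo 3 against embryos 1 and 2, or tested over all 3 numbers in an F test. The methods' t-test is two-tailed on the same values. The fits were tested on simulated data.

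After the genotype means were removed, arrays of the same number correlated at 0.51 to 0.67 and others at -0.44 to -0.04, so the numbers pair the arrays, which the labels do not state. The precision rests on the number of arrays and on signal over background: 43.4% to 46.7% of probe sets lay over 7. The members, roles and lists were chosen with earlier results of these data known. Values in every array are given for members with an unadjusted p under 0.05, groups that do not overlap or an adjusted p under 0.05 by number, and for the brightest of each role.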

Additional observations from a re-analysis of the deposited data

How the results depend on the processing

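No adjusted p of a member by genotype was under 0.05 in any setting tried, the lowest being 0.975, and the limits are the 3 arrays per genotype and the low signal of 6 members. The block, the t-test, the trend and the filters leave a member's difference as it is. Of 304 values of single members under the 10 alternatives that can move it, 265 kept their direction and 38 reversed. The reversals fell in 19 of the 31 members. Fgf2 came to 0 with signals under 32 set to 32, since all its signals lay below that floor and became equal. Some of the 265 could not move, so they overstate how stable the directions were. The floor of 32 lies below every signal of the kept members. The mean of kept probe sets equals the main value in members with a single kept probe set. Etv4 was lower under all 10 alternatives, though the floor and that mean could not move it. Its sign in the full data was fixed by the filter, so this count cannot be read as support for its direction.

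With the embryo number as a replicate block, 327 probe sets were higher and 586 lower at an unadjusted p under 0.05, against 77 and 133 without it, and 2 members passed against 1 (Map2k1 added). The block changed no other member's call. The methods' t-test put 160 higher and an intensity trend 69 lower. Without the filter, with more probe sets tested, the counts were 611 and 694, and with the filter at 8, with fewer, 48 and 69. The trend, quantile normalization, no filter and the filter at 8 left 0 members at that threshold, and the filter at 8 left out Etv4, so that 1 Ets factor was lower. Without an array the counts ran from 61 to 252 higher and from 85 to 254 lower, with 0 to 1 members passing (0 without WT 2, OC1-KO 1 or OC1-KO 2, and Map2k1 in place of Etv4 without WT 1) and 4 to 5 inhibitors lower, or 3 without both embryos 3. By embryo number, no filter left 0 members in either direction at an adjusted p under 0.05, and the mean of kept probe sets left 0 lower.

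Fgf8 reversed to -0.13 with the floor of 32, and Map2k2 to -0.16 with the mean of kept probe sets. The other reversals came from leaving out arrays, over which the log2 differences ran as follows.
They were Fgf2 from -0.83 to 1.48, Fgf3 from -0.44 to 0.0089, Fgf9 from -0.18 to 0.16, Fgf10 from -0.042 to 0.83, Fgf12 from -0.19 to 0.063 and Fgfr1 from -0.37 to 0.10. Among the rest they were Fgfr2 from -0.53 to 0.0043, Fgfr3 from -0.12 to 0.16, Fgfr4 from -0.34 to 0.19, Grb2 from -0.20 to 0.20, Sos1 from -0.023 to 0.25 and Nras from -0.035 to 0.17. Last they were Braf from -0.078 to 0.31, Map2k2 from -0.12 to 0.23, Spry2 from -0.21 to 0.061, Spred1 from -0.23 to 0.0066, Dusp4 from -0.039 to 0.24 and Dusp6 from -0.14 to 0.035.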
